A study of Mus musculus with 9 samples.

Results

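Chemokine receptors steer T cells toward the tissues that make their ligands, and the genes of 7 of them were examined here: Ccr2, Cxcr3, Cxcr6, Cx3cr1, Cxcr4, Cxcr5 and Ccr4. They were taken by symbol from a panel table of 750 genes, and all 7 were measured. The cells were CD8+ T cells sorted from OT-1 mice, whose transgenic T cell receptor sees an ovalbumin (OVA) peptide. Each of 3 groups held 3 samples after 24 h of culture with OVA-pulsed bone marrow-derived macrophages plus glioma cells of the line CT2A-TRP2-β2mKO, with OVA-pulsed macrophages only, or with no other cell. This mouse line carries TRP2, makes no OVA and lacks β2m, and thus surface MHC-I, so that the T cell receptor had its antigen only on the macrophages.

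All 3 groups shared the same history of splenocytes stimulated with OVA peptide and IL-2, CD8 purification and further days in IL-2. The labels give 10 T cells per tumor cell and 5 per macrophage, while the RNA methods state lower ratios. Those methods also name IL-2 in the medium of OT-1 cells alone and leave its presence in the co-cultures unclear, so IL-2 and the added cells cannot be told apart in the comparisons with OT-1 alone. The design text calls the cells of OT-1 alone naive, but by the growth protocol they were primed. The study treats the 3 samples of a group as separate co-cultures, but whether they came from separate animals is not stated, and P values therefore measure the spread between these cultures only.

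Chemokine receptors are G protein-coupled receptors, and a T cell changes its set of them as it is primed, becomes an effector cell or settles as a memory cell. CXCR3, the receptor of CXCL9, CXCL10 and CXCL11, and CCR2, the receptor of CCL2, are known for recruiting effector cells to inflamed tissue. CXCR6, which binds CXCL16, is known from CD8+ T cells resident in tissue and tumors, and CX3CR1, which binds fractalkine (CX3CL1), from cytotoxic effector cells that patrol the vessels. CXCR4 and its ligand CXCL12 retain cells in bone marrow, CXCR5 and CXCL13 draw cells into B cell follicles, and CCR4, which binds CCL17 and CCL22, is known from skin homing and from helper and regulatory T cells.

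RNA was counted on an nCounter, in which fluorescent barcodes on gene-specific probes are counted directly, with no amplification step. All levels below are log2 normalized counts as deposited, and a difference of 1 is a 2-fold change. Levels of different genes are not ranked against each other, because each has its own probe. The raw depth behind each sample, recovered from the steps between low values, was 697544 to 1185869 counts in 8 samples and 132039 in macrophage sample 2, whose counts had been multiplied by 6.38, against 0.681 to 1.36 in the others. Genes of low level were high together in that sample, and over all 750 genes the median difference from OT-1 alone was 0.40 with macrophages and tumor and 0.66 with macrophages, or 0.40 and 0.20 without it. T cell identity genes were well measured in every group, with 11 of 11, Cd3e and Cd8a among them, at or above 100 normalized counts (log2 6.64). The defining macrophage genes Csf1r, Emr1 (F4/80) and C1qa, the B cell gene Cd79a and the helper T cell gene Cd4 stayed under that level in every group mean. Other genes of those lists reached it in each group: 4 of 22 macrophage genes, 1 of 10 B cell genes (Cd37) and 1 of 6 helper and regulatory T cell genes (Gata3).

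With both macrophages and CT2A-TRP2-β2mKO tumor cells present, 5 of the 7 receptor genes differed from OT-1 alone: Ccr2, Cxcr3 and Cxcr6 fell, and Cx3cr1 and Cxcr5 rose. Over the table, 18.4% of genes passed the same test, 3.87% lower and 14.5% higher, at 29 and 109 genes, a split that became 15 and 13 with each sample centred on its median and 68 and 72 after quantile normalization. With macrophages and no tumor cells, 4 of the 7 passed, Ccr2 and Cxcr6 lower and Cx3cr1 and Cxcr5 higher, where 6.53% and 11.9% of all genes were lower and higher, 18.4% in all. Both comparisons use the same 3 samples of OT-1 alone, and the macrophage samples also enter the comparison of the co-cultures. There 1 receptor gene passed, Cxcr6, which was higher with tumor, where 3.20% of all genes passed, 2.67% higher and 0.533% lower. Groups did not overlap for 5 of the 7 with macrophages and tumor (57.1% of all genes), for 5 with macrophages (53.1%) and for 3 between the co-cultures (24.9%). Cxcr4 and Ccr4 passed in no comparison, and the means of Cxcr5 and Ccr4 lay under 100 normalized counts in all 3 groups.

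**Figure D1:**
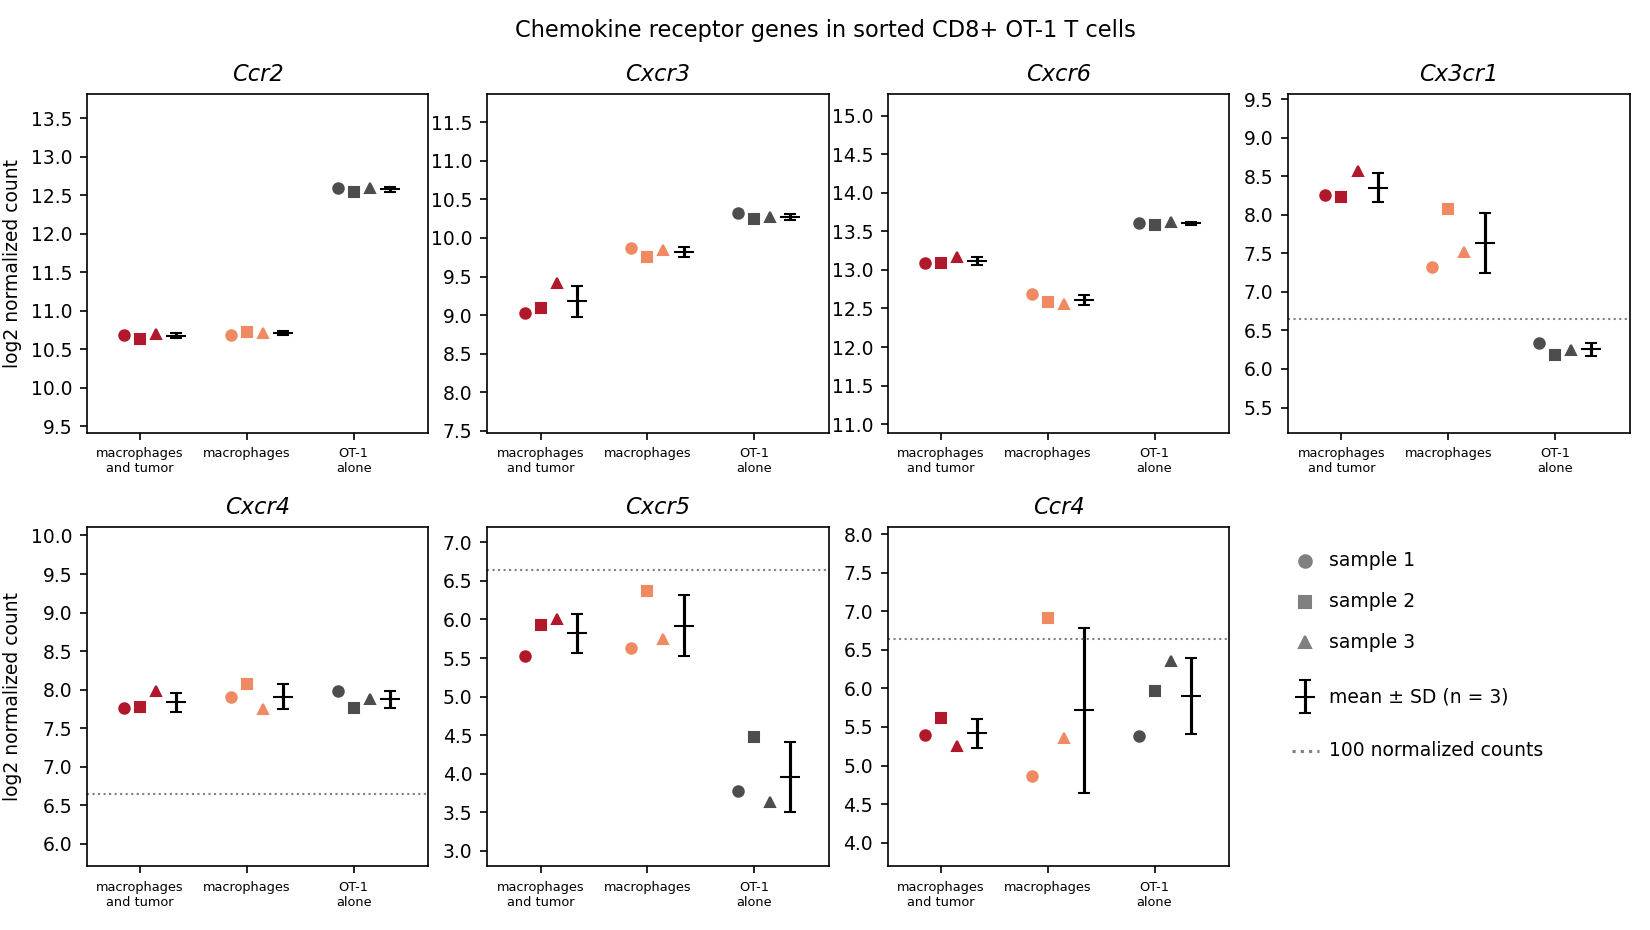
Log2 normalized counts of the 7 receptor genes in every sample (symbols: samples 1 to 3 of each group; black bar: mean ± SD, n = 3; dotted line: 100 normalized counts), each panel spanning 4.4 log2 units. Ccr2 sits near 10.7 in all 6 co-culture samples and near 12.6 in OT-1 alone, Cxcr6 is lowest with macrophages only, and Cxcr5 lies under the line throughout.

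The sequences just upstream are shown for the 4 receptor genes that passed in at least 1 comparison and had a group mean of at least 100 normalized counts, so that the genes that fell (Ccr2, Cxcr6 and Cxcr3) can be read beside the gene that rose (Cx3cr1). They are the 250 bases before each annotated start in RefSeq (GRCm38.p6), on the strand of the gene, 5′ to 3′, with each match to the core GGAAA, bound by NFAT and other factors, in capitals in whichever strand it lies. Of the 7 receptors, 6 matched an upstream sequence by symbol.
Ccr2 (chr9:124101933-124102182, plus strand): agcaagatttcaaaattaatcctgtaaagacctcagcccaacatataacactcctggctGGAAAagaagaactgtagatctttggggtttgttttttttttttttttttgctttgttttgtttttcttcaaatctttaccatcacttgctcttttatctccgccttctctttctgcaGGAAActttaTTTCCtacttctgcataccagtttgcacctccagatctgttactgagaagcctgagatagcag
Cxcr6 (chr9:123806227-123806476, plus strand): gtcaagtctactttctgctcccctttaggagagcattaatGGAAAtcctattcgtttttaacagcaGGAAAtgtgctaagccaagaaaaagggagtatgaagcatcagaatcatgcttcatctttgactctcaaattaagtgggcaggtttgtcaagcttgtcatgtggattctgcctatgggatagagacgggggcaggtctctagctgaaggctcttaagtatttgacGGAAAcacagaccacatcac
Cxcr3 (chrX:101734148-101734397, minus strand): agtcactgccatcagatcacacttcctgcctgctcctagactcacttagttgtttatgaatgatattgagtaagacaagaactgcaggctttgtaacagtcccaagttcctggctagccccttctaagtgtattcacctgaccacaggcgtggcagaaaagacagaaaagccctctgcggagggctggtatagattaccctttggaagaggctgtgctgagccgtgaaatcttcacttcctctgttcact
Cx3cr1 (chr9:120068297-120068546, minus strand): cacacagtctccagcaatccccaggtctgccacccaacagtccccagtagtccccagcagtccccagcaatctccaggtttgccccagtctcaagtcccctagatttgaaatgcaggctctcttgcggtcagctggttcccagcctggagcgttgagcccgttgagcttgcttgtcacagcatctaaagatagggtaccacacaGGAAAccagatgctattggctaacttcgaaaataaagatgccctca
Ccr2 and Cxcr6 hold 3 matches each, Cx3cr1 holds 1 and Cxcr3 none, and at least 1 match stands in 55.6% of all 32851 windows of the same length. A search on both strands for the T-box core GGTGTG, present in 16.3% of windows, found no match in any of the 6 receptors, and the AP-1 site TGANTCA, present in 6.7%, matched once, in Ccr4. The Runx core TGTGGT, present in 14.0% of windows, matched once each in Cxcr3, Cxcr6 and Cx3cr1. The Runx and T-box cores can share letters, but no T-box match was found here. These are matches of letters and not measured sites.

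Ccr2, the receptor of the monocyte-recruiting chemokine CCL2, showed the same level in both co-cultures. It stood at 10.69, 10.64 and 10.70 with macrophages and tumor, at 10.68, 10.73 and 10.71 with macrophages, and at 12.59, 12.54 and 12.60 in OT-1 alone. Every co-culture sample lay below every sample of OT-1 alone, and the co-cultures overlapped. Relative to OT-1 alone, Ccr2 fell by 1.90 on the log2 scale in the presence of both cell types (standard error 0.06, n = 3 per group, limma adjusted P = 2.53e-05), which left 0.268 of the level in OT-1 alone. With macrophages it fell by 1.87 (adjusted P = 1.51e-05). Tumor minus no tumor was −0.03, with a 95% interval from −0.18 to 0.12. In bulk RNA of this kind, fewer cells with a transcript and less transcript per cell cannot be told apart. Both falls kept their call under all 17 alternatives, between −2.41 and −1.88 with tumor and between −2.57 and −1.83 without.

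Ccr3, the eotaxin receptor gene, lies next to Ccr2 on chromosome 9 in the RefSeq annotation and is no member of the 7. Its differences from OT-1 alone, 0.84 with macrophages and tumor and 1.72 with macrophages, did not pass.

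Cxcr3, the receptor of the interferon-induced chemokines CXCL9, CXCL10 and CXCL11, had 3 separate levels. It stood at 9.03, 9.09 and 9.41 with macrophages and tumor, at 9.87, 9.75 and 9.85 with macrophages, and at 10.32, 10.24 and 10.27 in OT-1 alone, with no overlap between any groups. Against OT-1 alone it fell by 1.10 with macrophages and tumor (standard error 0.11, adjusted P = 0.00196), to 0.467 of the level there. With macrophages only, the difference of −0.45 (95% interval −0.72 to −0.19) did not pass after adjustment over 750 genes (adjusted P = 0.146). Between the co-cultures the difference was −0.65 with tumor over macrophages (95% interval −0.91 to −0.38, adjusted P = 0.0952). Without macrophages and tumor sample 3, which was the highest of its group, both of these passed, at −0.45 (adjusted P = 0.0374) and −0.76 (adjusted P = 0.0296). With all samples kept, both also passed with the filter at 100 normalized counts (adjusted P = 0.0255 and 0.00952), the variance trend (0.00599 and 7.39e-04) and Benjamini-Hochberg adjustment (0.0202 and 0.0132), and the difference between the co-cultures passed with quantile normalization (−0.82, adjusted P = 0.0471). The fall with tumor lost its call only with median centring, where it was larger, at −1.61, but with a standard error of 0.39 (adjusted P = 0.0664).

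Cxcr6, the receptor of CXCL16, was lowest with macrophages only, and macrophages and tumor gave an intermediate level. Its values were 13.09, 13.09 and 13.17 with macrophages and tumor, 12.69, 12.59 and 12.56 with macrophages, and 13.61, 13.58 and 13.62 in OT-1 alone. No groups overlapped, and the spread within a group was at most 0.07 (SD). With macrophages only it fell by 0.99 relative to OT-1 alone (standard error 0.07, adjusted P = 3.74e-04), a call kept under all 17 alternatives (−1.69 to −0.90). With macrophages and tumor it fell by 0.49 (adjusted P = 0.0104), to 0.714 of the level in OT-1 alone. Set against macrophages only, its level with tumor was higher by 0.50 (95% interval 0.34 to 0.67, adjusted P = 0.0417), or 1.42-fold. The fall with tumor lost its call with median centring (−0.997, adjusted P = 0.958) and without macrophages and tumor sample 1 or 2 or any single sample of OT-1 alone (adjusted P from 0.0637 to 0.0766, differences from −0.50 to −0.47). The rise between the co-cultures lost its call with quantile normalization (0.25, adjusted P = 0.951), with median centring (0.69, adjusted P = 1) and with only the 2 groups compared (0.50, adjusted P = 0.529). It kept its call when macrophage sample 2 was left out and lost it without any other single sample (adjusted P from 0.0816 to 0.241, differences from 0.48 to 0.54).

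Cx3cr1, the receptor of fractalkine, rose in both co-cultures. It read 8.26, 8.23 and 8.57 with macrophages and tumor, 7.32, 8.07 and 7.52 with macrophages, and 6.34, 6.18 and 6.24 in OT-1 alone, where its mean of 6.25 was under 100 normalized counts. The 3 groups did not overlap, and macrophage sample 2, the shallow one, was the highest of its group. With macrophages and tumor it rose by 2.10 over OT-1 alone (limma, standard error 0.20, adjusted P = 0.00134), or 4.29-fold, under all 17 alternatives (1.59 to 2.16). With macrophages it rose by 1.38 (adjusted P = 0.0124), a call lost without any single sample of OT-1 alone (1.35 to 1.43, adjusted P from 0.0561 to 0.0724) with values raised to 100 normalized counts (0.99, adjusted P = 0.0711), with median centring (0.69, adjusted P = 1) and with only the 2 groups compared (1.38, adjusted P = 0.0759). Between the co-cultures the difference was 0.72 (95% interval 0.25 to 1.19, adjusted P = 0.593), which passed with quantile normalization (0.68, adjusted P = 0.0427) and without macrophage sample 2 (0.93, adjusted P = 0.0416).

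Cx3cr1 and Ccr2 are also expressed by monocytes and macrophages, so the marker genes of those cells were set beside them. The 22 measured macrophage genes summed to 10412 to 10800 normalized counts with macrophages and tumor, 14773 to 16725 with macrophages and 3614 to 4062 in OT-1 alone, and none was at 0. Most of that sum was Spp1 (osteopontin), which activated T cells also express. Without it, the sums were 1905 to 2105 with macrophages and tumor, 1739 to 3231 with macrophages and 1212 to 1487 in OT-1 alone. The sum of 3231 was that of macrophage sample 2, the shallow one, and the other macrophage samples stood at 1739 and 1846. At 100 normalized counts or more stood 4 of the 22 in each group: Cd68, Itgax, Spp1 and Cd84. Csf1r, the receptor of the macrophage growth factor, read 4.88, 4.66 and 4.69 with macrophages and tumor, 3.74, 6.67 and 4.53 with macrophages, and 4.03, 3.76 and 4.26 in OT-1 alone. Of the macrophage genes, 2 were higher with macrophages and tumor and 3 with macrophages than in OT-1 alone, and 1, Spp1, was lower with tumor than with macrophages. The part of these cells in the rise of Cx3cr1 was not tested. Ccr8, the gene next to Cx3cr1 in the annotation and a receptor of CCL1, had differences of 1.44 and 0.99 that did not pass.

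**Figure D2:**
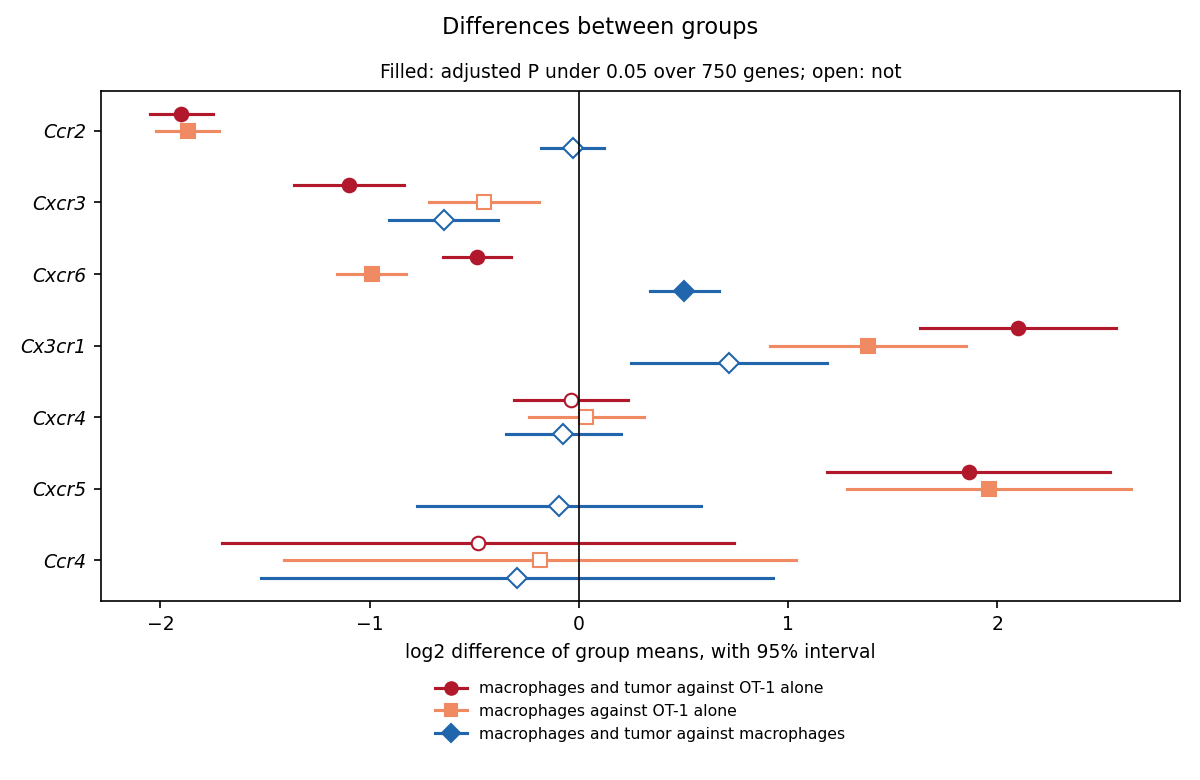
Log2 differences of group means for the 7 receptor genes (symbols, filled where adjusted P was under 0.05 over 750 genes) with 95% intervals (lines) in the 3 comparisons. Ccr2, Cxcr3 and Cxcr6 lie left of 0 and Cx3cr1 and Cxcr5 right of it against OT-1 alone, and Ccr4 has the widest intervals.

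Cxcr4, the receptor of the bone marrow and stromal chemokine CXCL12, showed no difference that passed. It stood at 7.76, 7.77 and 7.98 with macrophages and tumor, at 7.91, 8.07 and 7.75 with macrophages, and at 7.98, 7.76 and 7.88 in OT-1 alone, with all groups overlapping. The differences from OT-1 alone were −0.04 with macrophages and tumor (95% interval −0.31 to 0.24), 0.04 with macrophages (−0.24 to 0.31) and −0.07 between the co-cultures (−0.35 to 0.20). On the deposited scale, each interval leaves out a 2-fold change in either direction. Relative to the median of all genes, which had itself shifted, the first was −0.55 and the second −0.66, and neither passed (adjusted P = 1 each). The standard error of the first was then 0.37, against 0.12 on the deposited scale, so a 2-fold fall is not left out there.

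Cxcr5, the follicle-homing receptor of CXCL13, was higher in both co-cultures but at low counts. It stood at 5.53, 5.93 and 6.0 with macrophages and tumor, at 5.63, 6.37 and 5.75 with macrophages, and at 3.77, 4.47 and 3.63 in OT-1 alone. All 6 co-culture samples lay above OT-1 alone. The raw counts behind these values were 44, 53 and 47 with macrophages and tumor, 59, 13 and 51 with macrophages, and 20, 31 and 11 in OT-1 alone, and counting error alone was 13% to 30.2%. Cxcr5 rose by 1.86 with macrophages and tumor (standard error 0.29, adjusted P = 0.0152) and by 1.96 with macrophages (adjusted P = 0.0136), and differed by −0.10 between the co-cultures (95% interval −0.78 to 0.58).

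Those calls for Cxcr5 ended in 8 and 7 of the 16 alternatives that gave a value, among them median centring (1.35 and 1.27) and quantile normalization (1.26 and 0.97), and values raised to 100 normalized counts, where both were 0. The call with tumor was also lost with the variance trend (adjusted P = 0.0553), and that with macrophages with only the 2 groups compared (adjusted P = 0.0848). With tumor the call was lost without macrophages and tumor sample 2 or 3 or OT-1 alone sample 1 or 3 (1.70 to 1.81, adjusted P from 0.0742 to 0.0864), and with macrophages without macrophage sample 3 or OT-1 alone sample 1 or 3 (1.80 to 2.04, adjusted P from 0.0514 to 0.0779). Genes of B cells, which express Cxcr5 strongly, also stood at low counts. Of 10 measured, 1 reached 100 normalized counts, the tetraspanin gene Cd37, and the list median ranged over 4.48 to 4.90 with macrophages and tumor, 4.39 to 6.66 with macrophages and 3.94 to 4.48 in OT-1 alone. The median of 6.66 was that of the shallow macrophage sample 2, against 4.39 and 4.685 in the other macrophage samples. Of 14 tumor or mesenchymal genes, 6 dendritic cell genes and 9 neutrophil or mast cell genes, 1 each was higher in each co-culture than in OT-1 alone, of 8 NK cell genes 1 was lower, and of 6 helper and regulatory T cell genes none passed. No B cell gene of the list passed in any comparison, at a median difference of 0.41 with macrophages and tumor and 0.985 with macrophages.

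Ccr4, the receptor of CCL17 and CCL22, was at low counts in every group and had the widest spread. It read 5.39, 5.62 and 5.25 with macrophages and tumor, 4.87, 6.92 and 5.36 with macrophages, and 5.38, 5.97 and 6.36 in OT-1 alone, with all groups overlapping. Raw counts were 40, 43 and 28 with macrophages and tumor, 35, 19 and 39 with macrophages, and 61, 88 and 73 in OT-1 alone. Macrophage sample 2 thus had the fewest raw counts and the highest normalized value. The differences were −0.48 for macrophages and tumor over OT-1 alone (95% interval −1.71 to 0.74), −0.19 for macrophages over OT-1 alone (−1.41 to 1.04) and −0.30 between the co-cultures (−1.52 to 0.93), so that a 2-fold fall lay inside each interval and a 2-fold rise inside the second. Quantile normalization gave −1.01 (adjusted P = 0.0198) and −1.14 (adjusted P = 0.0106) against OT-1 alone.

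**Figure D3:**
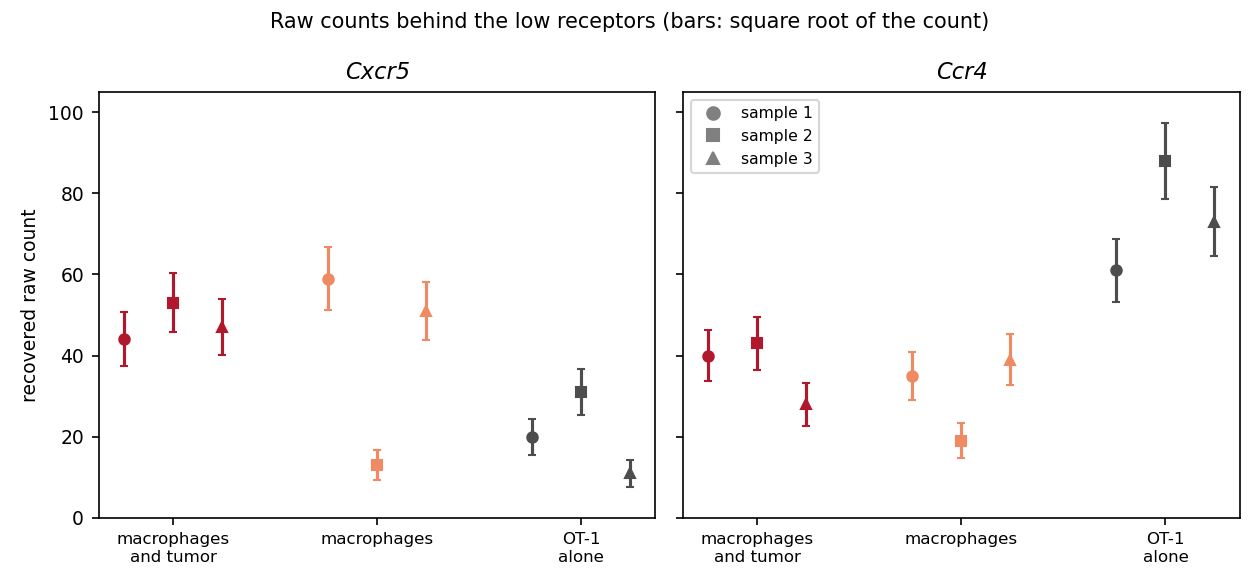
Recovered raw counts of Cxcr5 and Ccr4 in every sample (symbols: samples 1 to 3; bars: square root of the count, counting error only), before scaling. Cxcr5 has 11 to 31 counts in OT-1 alone and 44 to 53 with macrophages and tumor, and macrophage sample 2 has 13 counts of Cxcr5 and 19 of Ccr4.

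Differences between receptor genes within a sample do not depend on how that sample was scaled. Ccr2 minus Cxcr6 was −2.44 ± 0.04 (SD, n = 3) with macrophages and tumor, −1.91 ± 0.09 with macrophages and −1.03 ± 0.01 in OT-1 alone. Cxcr3 minus Cxcr6 was −3.94 ± 0.16 with macrophages and tumor, −2.79 ± 0.07 with macrophages and −3.33 ± 0.03 in OT-1 alone. The balance of Cxcr3 and Cxcr6 thus stood below OT-1 alone with tumor and above it with macrophages only, with no overlap among the 3 groups. Cxcr3 minus Cx3cr1 was 0.82 ± 0.05 with macrophages and tumor, 2.19 ± 0.45 with macrophages and 4.02 ± 0.04 in OT-1 alone. Ccr2 minus Cxcr3 was 1.5 ± 0.19 with macrophages and tumor, 0.88 ± 0.09 with macrophages and 2.30 ± 0.03 in OT-1 alone. For any single pair of non-overlapping groups the two-sided exact permutation P is 0.1, the smallest that 3 samples against 3 allow. These are 4 of the 10 pairs of the 5 genes with a group mean of at least 100 normalized counts.

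**Figure D4:**
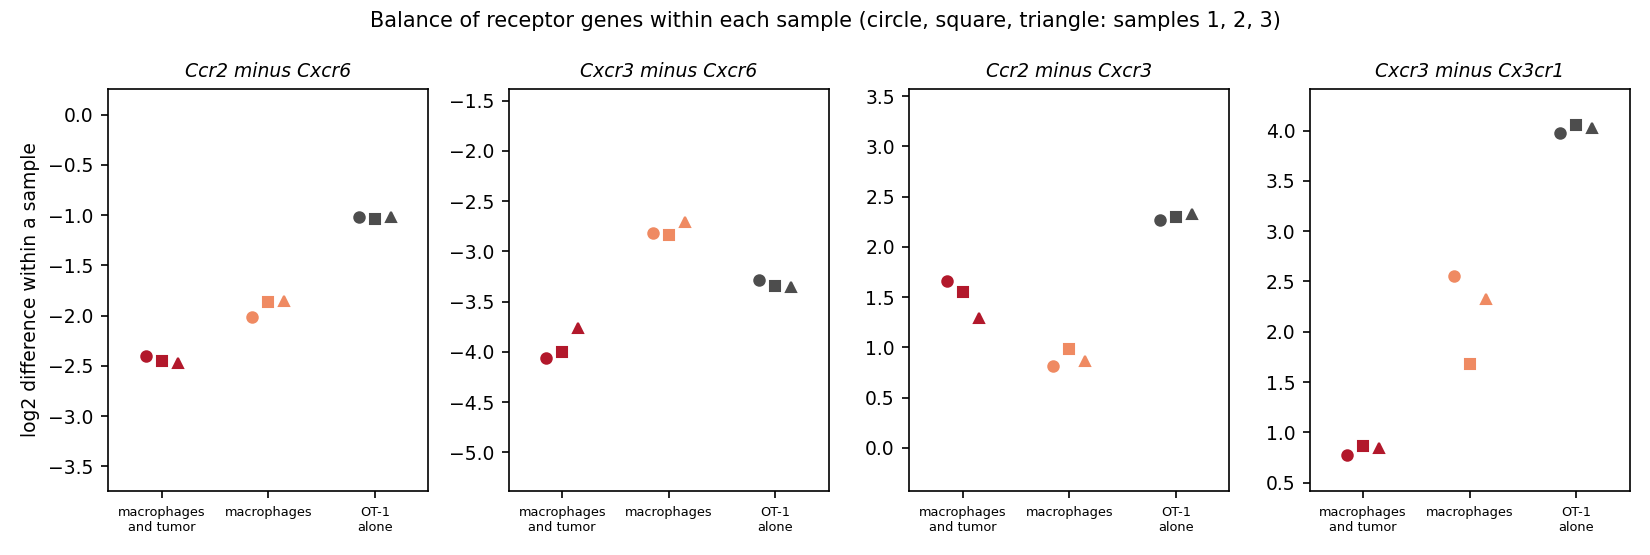
Log2 difference between a pair of receptor genes within each sample (symbols: samples 1 to 3), by group, each panel spanning 4 log2 units. Ccr2 minus Cxcr6 falls into 3 separate groups, and Cxcr3 minus Cxcr6 is highest with macrophages only.

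Among the genes of the panel with a group mean of at least 100 normalized counts, those most like each receptor over the 9 samples were found by Pearson correlation, as a description across samples that share groups and depth. Ccr2 was nearest to Ccnd3 (cyclin D3, r = 0.99), Tnfrsf8 (CD30, r = 0.99) and Socs1, a feedback inhibitor of cytokine signalling (r = 0.98). Like Ccr2, these 3 had nearly equal means in both co-cultures: Socs1 stood at 8.61 with macrophages and tumor, 8.61 with macrophages and 10.10 in OT-1 alone. Cxcr6 was nearest to Ifitm2, Ifitm1 (interferon-induced transmembrane genes) and the CD8 lineage factor gene Runx3, each at r = 0.99, and Ifitm1 averaged 11.89 with macrophages and tumor, 10.64 with macrophages and 13.53 in OT-1 alone. Cx3cr1 was nearest to Klrd1 (CD94), Cd3g (both r = 0.99) and the OX40 gene Tnfrsf4 (r = 0.98). Cxcr3 followed Hmgb1 (r = 0.92), C1qbp (r = 0.90) and Ecsit (r = 0.88). For Cxcr4 no gene came above Pla2g6, at r = 0.70, and that value was 0.43 without macrophage sample 2.

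Of 12 other chemokine receptor genes measured, Ccr7 and Ccrl2 rose over OT-1 alone in each co-culture, and 9 did not pass. Ccr7, the receptor for lymph node homing, read 11.10, 10.92 and 10.97 with macrophages and tumor, 9.24, 9.49 and 9.28 with macrophages, and 7.0, 7.32 and 7.53 in OT-1 alone, and it was also higher with tumor than with macrophages (by 1.66, adjusted P = 0.00509). Ccrl2, an atypical receptor of the chemokine family, rose by 1.5 (adjusted P = 3.75e-04) and 1.16 (adjusted P = 0.00154). The 9 that did not pass, among them Ccr1, Ccr6, Ccr8, Ccr9 and Cxcr2, had group means under 100 normalized counts in every group, and the median difference over the 12 was 0.94 with macrophages and tumor and 1.13 with macrophages.

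The ligands of the 7 receptors were near the bottom of the range in the RNA of these sorted cells. All 13 were measured and all 13 had means under 100 normalized counts in every group. Ccl2, a ligand of CCR2, read 5.98, 6.22 and 6.33 with macrophages and tumor, 4.44, 5.48 and 4.46 with macrophages, and 3.25, 3.83 and 3.49 in OT-1 alone. It rose by 2.65 over OT-1 alone with macrophages and tumor (adjusted P = 0.00358), where 14.5% of all genes rose. The part of macrophages or glioma cells left after sorting in that rise was not tested. The other 12, Cxcl9, Cxcl10, Cxcl12, Cxcl13, Cxcl16, Cx3cl1, Ccl17 and Ccl22 among them, passed in no comparison. Their counts in the culture as a whole were not measured, since only sorted CD8+ cells were lysed.

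Transcription factor genes linked to these receptors in the literature differed from OT-1 alone in both directions. Of 15 measured, 6 were higher and 1 lower than in OT-1 alone with macrophages and tumor (14.5% and 3.87% of all genes). With macrophages 3 rose and 2 fell (11.9% and 6.53% of all genes). Between the co-cultures 2 were higher with tumor (2.67% of all genes). Eomes, a T-box factor of effector CD8+ T cells, fell in both co-cultures, by 0.60 (adjusted P = 0.00651) and 0.77 (adjusted P = 0.00241). The other T-box factor, Tbx21 (T-bet), known as an activator of Cxcr3, stood at 9.33, 9.24 and 9.10 with macrophages and tumor, 9.21, 9.03 and 9.15 with macrophages, and 9.43, 9.55 and 9.73 in OT-1 alone, differences of −0.35 and −0.44 that did not pass (adjusted P = 0.389 and 0.151). Runx3 fell with macrophages only, by 0.67 (adjusted P = 0.00454), and its difference with tumor was −0.32 (adjusted P = 0.142). Bcl6, the follicular program factor linked to Cxcr5, had differences of 0.56 and 0.25 that did not pass, and Gata3, linked to Ccr4 in helper T cells, of 0.09 and −0.08. The genes that rose over OT-1 alone with macrophages and tumor were Stat3, Stat4, Stat6, Ikzf2 (Helios), Nfatc1 and Tcf7. Of these, Stat4, Ikzf2 and Nfatc1 also rose over OT-1 alone with macrophages only. Only Stat3 and Ikzf2 passed between the co-cultures, and the mean of Nfatc1 was lower with tumor than without, a difference that did not pass.

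Adhesion and exit genes that act with chemokine receptors in trafficking were measured for 9 of the list. With macrophages and tumor 3 of them rose over OT-1 alone and none fell, where 14.5% and 3.87% of all genes did. Itga4 (integrin α4) and Cd69, which retains cells in tissue, were among those that rose, by 0.75 (adjusted P = 0.00710) and 1.31 (adjusted P = 0.00147). With macrophages 2 rose, Itga4 among them, where 11.9% of all genes rose. Selplg, which encodes the selectin ligand PSGL-1, fell there by 0.50 (adjusted P = 0.0221), as 6.53% of all genes did. Selplg stood at 13.67, 13.61 and 13.76 with macrophages and tumor, 13.24, 13.06 and 13.23 with macrophages, and 13.69, 13.67 and 13.67 in OT-1 alone, so that, as for Cxcr6, the group with macrophages only was the lowest. Itgae (CD103), an integrin of resident T cells, read 5.63, 5.90 and 6.09 with macrophages and tumor, 4.99, 8.0 and 5.50 with macrophages, and 7.44, 7.44 and 7.36 in OT-1 alone. Its difference of −1.54 with tumor did not pass (adjusted P = 1), although the samples with tumor all lay below OT-1 alone. The macrophage group was spread by the shallow sample 2, and the fit shares its spread over all groups. The standard error of 0.71 for the difference with tumor thus includes that sample.

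**Figure D5:**
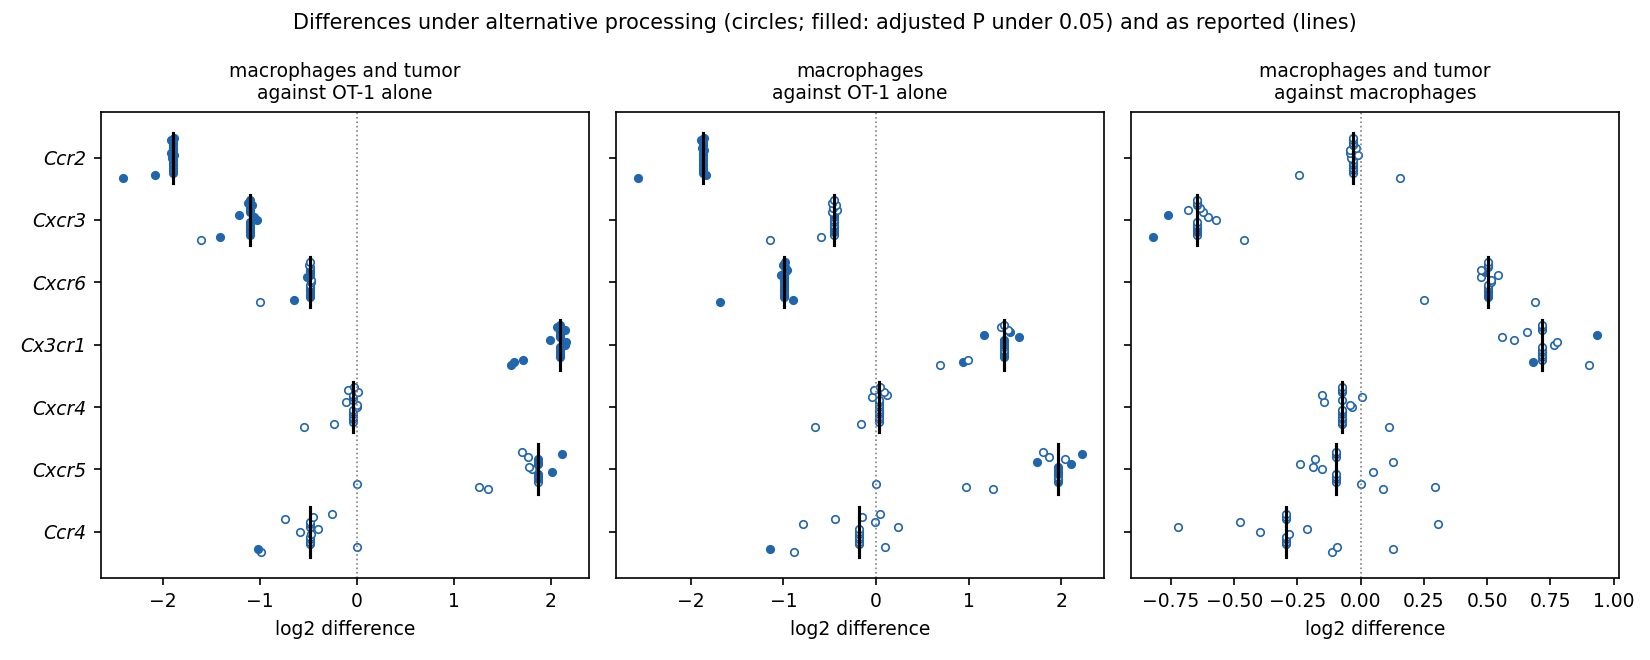
Log2 differences of the 7 receptor genes under each alternative way of processing (circles, filled where adjusted P was under 0.05) beside the values reported (vertical lines), in the 3 comparisons. Ccr2 keeps its fall under all alternatives against OT-1 alone, while the circles of Cxcr5 reach 0, where values were raised to 100 normalized counts.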

How the data were processed

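RNA of 9 samples of sorted CD8+ OT-1 T cells was analyzed by the authors on an nCounter MAX with a mouse immune panel, and normalized and quality controlled in nSolver. The authors deposited log2 normalized counts of 750 genes with 2 decimals, whose normalization was taken as given, because raw counts and housekeeping genes were not used here. Groups came from the sample titles, and no column was left out. Raw counts were recovered in each sample from the step between low values (100% of values under 30 counts were whole multiples of it within the rounding of 0.005 on the log2 scale). Replicates differed by more than counting noise (chi-square over its degrees of freedom was 1.95 to 26.2), and each sample was counted once.

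A linear model with a mean for each group was fitted to all 9 samples (limma 3.58.1, lmFit and eBayes, in R 4.3.3), and differences were tested two-sided with Benjamini-Yekutieli adjustment over 750 genes, as the RNA methods name, a cutoff of 0.05 and all genes kept. Both comparisons with OT-1 alone share its 3 samples. The fit was tested on simulated data. Alternatives were median centring, quantile normalization, a floor and a filter at 100 normalized counts, a variance trend, Benjamini-Hochberg adjustment, only the 2 groups compared, the sample number as a block, and leaving out each sample. All 7 members were named with every value. From lists of other receptors, ligands, trafficking genes and transcription factors, genes past the threshold in at least 1 comparison could be named, with the ligands of the members, defining marker genes and the 3 genes most like each receptor. Others named are neighbours of a member in the annotation or low members of a list, chosen after their values were seen. Some genes of these lists are not reported here. The members and lists were chosen with earlier results of these data known. Depth limits low genes most: at 100 normalized counts, counting error was 25.3% in macrophage sample 2 and 8.25% to 11.7% in the others. Such errors cover counting only.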

Additional observations from a re-analysis of the deposited data

How the results depend on the processing

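Of 351 values of the 21 receptor differences under alternatives, 278 kept direction and side of the threshold, 42 lost the call, 13 gained one and 18 changed sign. The 18 belonged to differences that had not passed and did not pass then. They were Ccr2 between the co-cultures with median centring (0.155), Cxcr4 with macrophages against OT-1 alone with centring (−0.66) and quantile normalization (−0.17) and between the co-cultures with centring (0.11), Cxcr5 between the co-cultures with centring (0.088) and quantile normalization (0.29), and Ccr4 with macrophages against OT-1 alone with the floor of 100 normalized counts (0.092) and between the co-cultures with quantile normalization (0.13). Leaving out a sample gave the rest. Cxcr4 then ranged from −0.11 to 0.017 and from −0.043 to 0.12 for macrophages and tumor and for macrophages over OT-1 alone, and from −0.15 to 0.0067 between the co-cultures. Cxcr5 ranged from −0.24 to 0.13 between the co-cultures, and Ccr4 from −0.79 to 0.24 with macrophages against OT-1 alone and from −0.72 to 0.31 between the co-cultures. The filter at 100 normalized counts leaves Cxcr5 and Ccr4 without a value.

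Of macrophages and tumor over OT-1 alone, 5 receptor genes passed, 2 with centring and 3 to 5 when a sample was left out (3 without macrophages and tumor sample 2 or OT-1 alone sample 1 or 3). With macrophages, 4 passed, 2 with centring, 2 with the floor, 2 with only the 2 groups compared and 2 to 5 when a sample was left out (2 without OT-1 alone sample 1 or 3). Between the co-cultures, 1 passed, 2 each with quantile normalization, the filter, the variance trend and Benjamini-Hochberg adjustment, 0 with centring, 0 with only the 2 groups compared, and 0 to 2 when a sample was left out (2, Cxcr6 and Cx3cr1, without macrophage sample 2, 1, Cxcr3, without macrophages and tumor sample 3, and 0 without any other). Of the 7, limma gave 3 at an unadjusted P under 0.05 between the co-cultures, 1 with centring and 3 with only the 2 groups compared.

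Over all genes, 138 passed for macrophages and tumor over OT-1 alone, 28 with centring and 96 to 223 when a sample was left out (223 without macrophage sample 2). With macrophages, 138 passed, 37 with centring, 226 with Benjamini-Hochberg, 73 with only the 2 groups compared and 83 to 170 when a sample was left out (83 to 88 without macrophage sample 3 or any sample of OT-1 alone). Between the co-cultures, 24 passed, 42 with the floor, 64 with the filter, 66 with the variance trend, 62 with Benjamini-Hochberg and 11 to 34 when a sample was left out (34 without macrophage sample 2, 11 to 15 without any other). With centring and with only the 2 groups compared, 0 passed by limma there (62 and 106 at an unadjusted P under 0.05). The causes were not tested.

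Whether equal sample numbers mark a pairing is not stated, and the correlations between samples do not settle it. Deviations from the group mean correlated at −0.37 to 0.46 for the same number and −0.46 to 0.46 for different numbers. A sample correlated best with its own number in 10 of 18 cases, each with 3 numbers to choose from. With the sample number as a replicate block, 10 genes passed between the co-cultures, 0 of them receptor genes (3 of the 7 at an unadjusted P under 0.05). The block ended the calls for Cxcr6 with macrophages and tumor (adjusted P = 0.0654) and between the co-cultures (adjusted P = 0.232), and for Cx3cr1 with macrophages (adjusted P = 0.0635), and it changed no other receptor call.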
